A study of Mus musculus with 15 samples.

Results

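The data set out here are the levels of 7 genes, *Tmem119*, *Olfml3*, *Fcrls*, *Sparc*, *Slc2a5*, *Upk1b* and *Pald1*, in RNA-seq of sorted brain myeloid cells. They are 7 of the 38924 genes listed in the deposited files, each found by its gene name with exactly 1 match, and all 7 passed the filter on low counts. The first 5 are established microglial genes that encode surface or secreted proteins. *Upk1b* and *Pald1* were chosen by measured values of these libraries, as the abundant genes with the lowest level in CD11b+CD45hi relative to CD11b+CD45lo cells, so the difference between the cell types is given below for all 7 genes as a description without a test.

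The cells came from the brains of wild type male C57BL/6J (B6) mice, 12 months old. The control mice ate a chow diet (CD) throughout, and the others a western diet (WD) from 2 months of age, a feed richer in fat and in milk protein, poorer in fiber and sweetened with high fructose corn syrup. Live CD11b+ cells without the T cell protein CD3e were sorted by the level of the leukocyte surface protein CD45 into CD11b+CD45hi cells, a gate that can hold microglia, border macrophages, monocytes and neutrophils, and CD11b+CD45lo cells, mostly microglia. There were 4 CD45hi and 4 CD45lo libraries from CD-fed mice, and 3 CD45hi and 4 CD45lo libraries from WD-fed mice. The study describes its deposited files as being per animal, but the labels do not say which CD45hi and CD45lo libraries came from the same mouse. The p-values measure the spread between these libraries, estimated for each gene over both cell types together. Over all genes, CD45hi libraries of a group differed more from each other than CD45lo libraries did. The shared estimate can thus be too small for CD45hi and too large for CD45lo cells.

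Microglia are the resident macrophages of the brain, and a set of genes that they express in the healthy adult brain, and less when activated, is called homeostatic. *Tmem119* encodes a membrane protein used to tell microglia from infiltrating macrophages, and *Fcrls* a scavenger-like member of the Fc receptor-like family. *Olfml3* encodes a secreted olfactomedin-domain glycoprotein, *Sparc* a secreted collagen-binding matrix protein, and *Slc2a5* the fructose transporter GLUT5. *Upk1b* encodes a tetraspanin known from the plaques of the bladder lining, and *Pald1* encodes paladin, a phosphatase-domain protein best known from blood vessel endothelium.

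The genes lie on 6 chromosomes of the mouse build mm10 (GRCm38), with coordinates of GENCODE M21. *Tmem119* (ENSMUSG00000054675) is on chromosome 5 from 113793729 to 113800516. *Olfml3* (ENSMUSG00000027848) and *Fcrls* (ENSMUSG00000015852) are both on chromosome 3, from 103722222 to 103738001 and from 87250758 to 87263738. *Sparc* (ENSMUSG00000018593) is on chromosome 11 from 55394500 to 55423183, and *Slc2a5* (ENSMUSG00000028976) on chromosome 4 from 150119283 to 150144169. *Upk1b* (ENSMUSG00000049436) is on chromosome 16 from 38773184 to 38800328, and *Pald1* (ENSMUSG00000020092) on chromosome 10 from 61319656 to 61383530. *Slc2a5* is on the plus strand and the other 6 are on the minus strand. *Pald1* alone overlaps other annotated genes, *Gm48077* and *Gm48074*, and shares 0 exonic bases with them.

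The promoters of the 7 genes were compared as a description. RefSeq (build GRCm38.p6) gave the promoter, 250 bases before to 50 after the start, of 5 of the 7 genes, *Olfml3*, *Fcrls*, *Sparc*, *Slc2a5* and *Pald1*. The motifs searched on both strands were those of PU.1 (GAGGAAGT), the ETS core it contains (AGGAAGT), AP-1 (TGAGTCA), SMAD (GTCTAGAC), MEF2 (CTAAAAATA), RUNX (TGTGGT), C/EBP (TTGCNNAA), IRF (GAAANNGAA), the E-box (CACGTG) and the TATA box (TATAAA). The sequences below are those of the 3 genes that hold a RUNX motif, and that of *Pald1*, which holds none of the 10 motifs and is the richest in G and C. Capitals mark motif matches.
Fcrls (chr3:87263475-87263774, minus strand): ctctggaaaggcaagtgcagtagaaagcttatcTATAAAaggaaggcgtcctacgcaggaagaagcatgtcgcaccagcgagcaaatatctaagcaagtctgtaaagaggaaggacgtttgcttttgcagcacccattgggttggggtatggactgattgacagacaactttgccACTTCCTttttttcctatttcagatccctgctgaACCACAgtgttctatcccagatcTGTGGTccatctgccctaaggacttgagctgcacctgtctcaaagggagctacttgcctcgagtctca
Sparc (chr11:55420031-55420330, minus strand): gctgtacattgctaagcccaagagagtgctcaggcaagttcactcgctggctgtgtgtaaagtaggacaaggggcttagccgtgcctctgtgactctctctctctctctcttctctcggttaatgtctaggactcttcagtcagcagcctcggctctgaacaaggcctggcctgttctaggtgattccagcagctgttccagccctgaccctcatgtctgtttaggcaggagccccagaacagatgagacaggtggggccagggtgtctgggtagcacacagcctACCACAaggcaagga
Slc2a5 (chr4:150119094-150119393, plus strand): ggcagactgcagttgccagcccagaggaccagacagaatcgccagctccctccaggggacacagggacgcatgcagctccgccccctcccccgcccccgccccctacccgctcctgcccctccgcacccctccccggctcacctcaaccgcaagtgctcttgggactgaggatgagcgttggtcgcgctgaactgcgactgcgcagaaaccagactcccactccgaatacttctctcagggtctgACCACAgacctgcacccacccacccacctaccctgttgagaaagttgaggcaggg
Pald1 (chr10:61383290-61383589, minus strand): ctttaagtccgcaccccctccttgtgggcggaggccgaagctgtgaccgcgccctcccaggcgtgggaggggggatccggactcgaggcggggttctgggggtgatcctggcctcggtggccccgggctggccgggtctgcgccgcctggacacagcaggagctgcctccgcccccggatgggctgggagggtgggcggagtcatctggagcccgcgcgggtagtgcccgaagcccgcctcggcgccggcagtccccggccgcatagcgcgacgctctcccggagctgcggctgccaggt
The RUNX motif was in the promoters of *Fcrls*, where it occurs at 2 positions, *Sparc*, near the end of the sequence, and *Slc2a5*, and in 16.8% of all 32851 promoters. *Fcrls* also held the ETS core, a motif found in 9.35% of promoters, and, near the start of the sequence, a TATA box, found in 13.6%. No motif of the 10 was found in the *Olfml3* or *Pald1* promoters. G and C made up 74.7% of the *Pald1* promoter, 65.3% of that of *Slc2a5*, 58% of *Olfml3*, 55.3% of *Sparc* and 48% of *Fcrls*, and the median of all promoters was 52.7%. A match is a description of the letters in this window only.

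The deposited expected counts summed to 11951412 to 17912272 per library. The 7 genes held 0.252% to 0.349% of the counts in CD45hi and 0.731% to 0.877% in CD45lo libraries, and the lowest value was 180 counts (*Upk1b* in replicate 1 of WD CD45hi), well above the 3 counts (0.156 to 0.282 cpm) taken as the smallest measurable value. Intervals and floors of this kind cover counting error only. A list of 5 defining markers of microglia (*P2ry12*, *Cx3cr1*, *Siglech*, *Gpr34* and *Sall1*) was measured in both gates, with a summed level of 3158 to 4063 cpm in CD45hi and 7026 to 8795 cpm in CD45lo libraries. Mitochondrial genes took 17.7% to 20.5% of the counts in CD45hi and 7.99% to 10.9% in CD45lo libraries.

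All 7 genes were lower in CD45hi than in CD45lo cells on each diet, without overlap of the libraries. The median of their log2 fold changes (edgeR fit, CD45hi minus CD45lo) was -1.25 in CD-fed and -1.54 in WD-fed mice, beside 0.04 and 0 over all 14967 genes tested. The same absence of overlap in this direction was found for 8.22% of all genes in CD-fed and 13.4% in WD-fed mice, and 0.588% and 1.17% of all genes were called lower in CD45hi cells by edgeR's glmTreat beyond 1.5-fold. These shares stand beside values that chose *Upk1b* and *Pald1*, and nothing further is read from them for the 7 genes. In such bulk libraries fewer microglia in the CD45hi gate and less RNA of a gene per microglial cell cannot be told apart. Between diets, no gene of the 7 that was tested passed the threshold in either cell type.

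**Figure D1:**
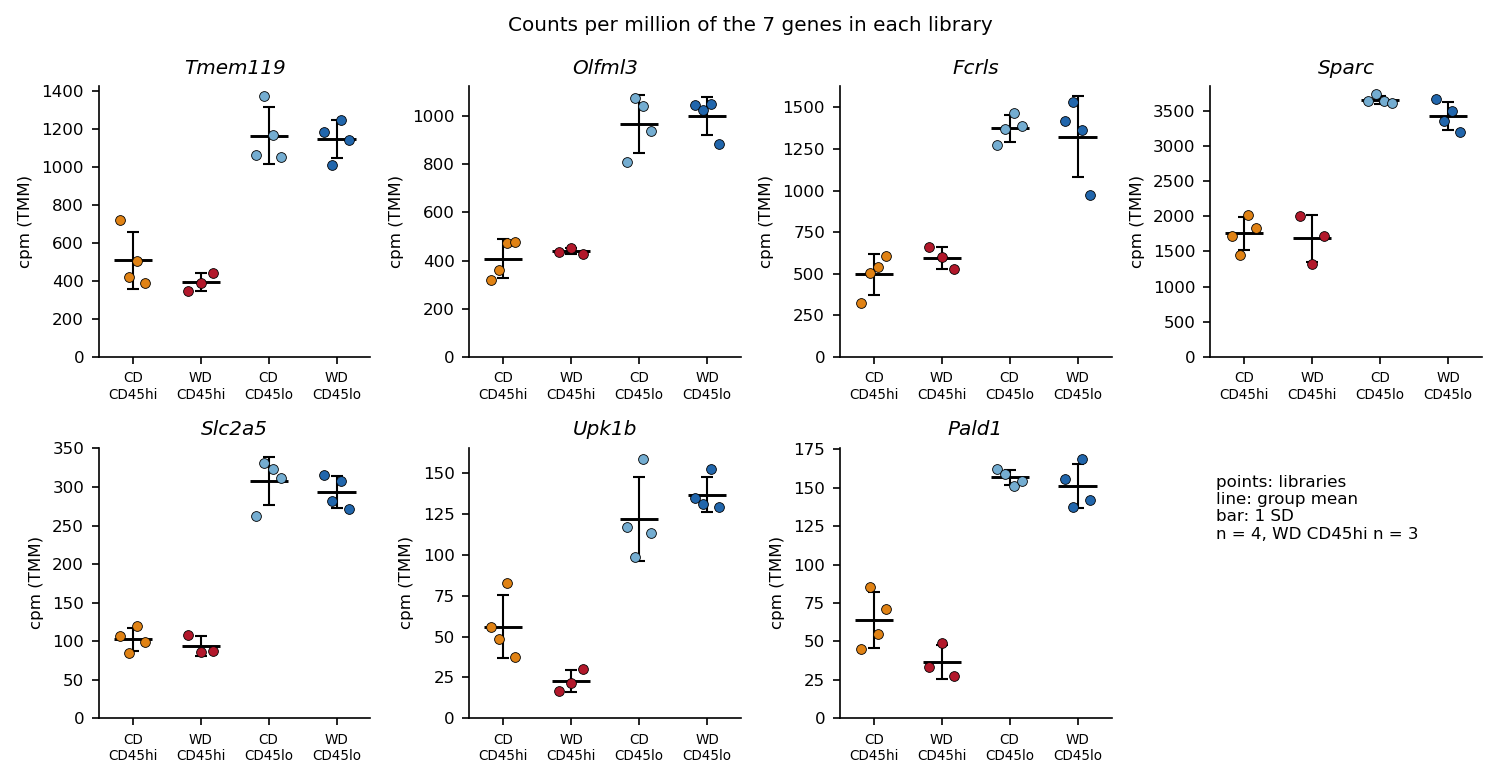
Normalized counts (cpm, after TMM; y axis, linear from 0) of each gene in the 15 libraries, by diet and CD45 level. Points are libraries, lines group means and bars 1 SD (n = 4, and n = 3 for WD CD45hi). In every panel the CD45hi points lie below all CD45lo points, and for *Upk1b* the 3 WD CD45hi libraries (16.9 to 29.9 cpm) lie below all 4 CD CD45hi libraries (37.5 to 82.9 cpm).

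*Tmem119*, the microglial membrane protein, was measured at 722, 419.8, 507 and 389 cpm in the 4 CD CD45hi libraries and at 348, 390.0 and 445 cpm in the 3 WD CD45hi libraries. In CD45lo cells it was 1066, 1377, 1171 and 1053 cpm on the CD and 1188, 1013, 1249.7 and 1145 cpm on the WD. The diets overlapped in both cell types, and replicate 1 of CD CD45hi, at 722 cpm, was the highest CD45hi library. The group means were 509.7 ± 150.4 cpm (SD, n = 4) and 394 ± 48.7 cpm (SD, n = 3) in CD45hi cells, a log2 fold change of WD against CD of -0.37 (SE 0.183), which did not pass the threshold (edgeR glmQLFTest FDR = 0.306). Without replicate 1 of CD CD45hi it was -0.15. In CD45lo cells the difference was -0.02 (SE 0.168, edgeR glmQLFTest FDR = 1).

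*Fcrls*, the Fc receptor-like gene, stood at 325, 505, 542 and 609 cpm in CD CD45hi and at 661, 599.8 and 529 cpm in WD CD45hi libraries. CD45lo libraries had 1272, 1369, 1466 and 1392 cpm on the CD and 1420.4, 1534, 1367 and 975 cpm on the WD. The lowest CD CD45hi library was the one with the highest *Tmem119*, and the lowest WD CD45lo library, replicate 4, was still above every CD45hi library. The WD against CD difference was 0.27 in CD45hi cells (SE 0.183, edgeR glmQLFTest FDR = 0.475) and -0.05 in CD45lo cells (SE 0.17, FDR = 1), both within the spread between libraries. The other members of the Fc receptor-like family were low. *Fcrl1* had mean levels of 27.5 cpm in CD CD45hi, 61.8 in CD CD45lo, 11.5 in WD CD45hi and 40.3 in WD CD45lo cells, and *Fcrl5*, *Fcrl6*, *Fcrla* and *Fcrlb* did not exceed 6.30 cpm in any library. Of the 3 that passed the filter on low counts, 0 were called between diets or between cell types.

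*Olfml3*, the secreted olfactomedin-domain protein, was measured at 317, 359, 474 and 479 cpm in CD CD45hi and at 434, 454 and 429 cpm in WD CD45hi libraries. The CD45lo libraries were at 808, 1074, 1044 and 939 cpm on the CD and 1045, 1024, 1050.4 and 883 cpm on the WD. The WD libraries lay within the range of the CD libraries in CD45hi cells and were close to each other, with a coefficient of variation of 3.01% against 20.04% on the CD. The WD against CD difference was 0.11 in CD45hi cells (SE 0.152, edgeR glmQLFTest FDR = 0.761) and 0.05 in CD45lo cells (SE 0.141, FDR = 1). Of the 7 other olfactomedin genes listed, 4 passed the filter on low counts. *Olfm1*, known from neurons, ran in the opposite direction to *Olfml3*, at 34.9 cpm in CD CD45hi, 1.41 in CD CD45lo, 36.2 in WD CD45hi and 1.23 in WD CD45lo cells, and rose in CD45hi over CD45lo cells on each diet (edgeR glmTreat FDR = 0.00218 on the CD and 0.00179 on the WD). *Olfml2b* had means of 17.5 to 35.0 cpm and did not pass the test.

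*Sparc*, the secreted matrix protein, had the highest level of the 7 genes. It was 1719, 1452, 2015 and 1833 cpm in CD CD45hi and 2000.1, 1327 and 1722 cpm in WD CD45hi libraries, and 3632, 3732, 3634 and 3611 cpm in CD CD45lo and 3666, 3349, 3495 and 3198 cpm in WD CD45lo libraries. The CD CD45lo libraries were nearly equal, with a coefficient of variation of 1.48%. The WD against CD difference was -0.06 in CD45hi cells (SE 0.128, edgeR glmQLFTest FDR = 0.855) and -0.09 in CD45lo cells (SE 0.118, FDR = 1), and the diets overlapped in both. Of the 7 other genes of the SPARC family, 6 passed the filter on low counts, 0 were called by diet or between the cell types, and none exceeded 65.5 cpm in any library. *Sparcl1* had means of 17.9 to 34.1 cpm and *Fstl1* 23.5 to 43.1 cpm, and *Smoc2* was at 0 in all 15 libraries.

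*Slc2a5*, the fructose transporter, was measured at 106, 85.0, 119 and 98.4 cpm in CD CD45hi and at 108, 86.0 and 86.7 cpm in WD CD45hi libraries. CD45lo cells had 262, 332, 323 and 312 cpm on the CD and 315, 281, 307 and 271 cpm on the WD. The WD held added fructose, which makes the diet comparison of this gene of interest, and the diets overlapped in both cell types. The WD against CD difference was -0.13 in CD45hi cells (SE 0.162, edgeR glmQLFTest FDR = 0.733) and -0.07 in CD45lo cells (SE 0.149, FDR = 1). All 5 listed genes of fructose metabolism passed the filter on low counts and 0 were called by diet in either cell type. *Khk*, which encodes the fructose-phosphorylating enzyme, was at 11.9 cpm in CD CD45hi, 24.7 in CD CD45lo, 22.7 in WD CD45hi and 20.3 in WD CD45lo cells.

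Of the 11 other facilitative hexose transporters listed, 2 were called higher and 0 lower in CD45hi than in CD45lo cells on the CD, and 1 higher and 1 lower on the WD, beside the lower values of *Slc2a5*. Of the 11, 7 passed the filter on low counts, and 0 were called by diet in either cell type. *Slc2a3*, a glucose transporter of neurons and leukocytes, was at 148 cpm in CD CD45hi, 30.8 in CD CD45lo, 69.6 in WD CD45hi and 31.2 in WD CD45lo cells, and was called higher in CD45hi than in CD45lo cells on the CD (edgeR glmTreat FDR = 0.00698) and had FDR = 0.242 on the WD, while the interaction did not pass (edgeR glmQLFTest FDR = 0.556). *Slc2a6* was called higher in CD45hi cells on each diet (means 16.8 against 1.57 cpm on the CD and 18.95 against 1.31 cpm on the WD). *Slc2a8* was at 14.2 cpm in CD CD45hi and 0.884 cpm in WD CD45hi cells, without overlap of the libraries (log2 fold change -3.99, SE 0.901, edgeR glmQLFTest FDR = 0.063), and was the 1 called lower in CD45hi cells on the WD (edgeR glmTreat FDR = 0.0347).

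*Slc2a5* gave a different direction by diet on another unit. RSEM also reports for each gene and library a length, the mean length of its transcripts weighted by their estimated shares, and TPM divides by it. The length of *Slc2a5* was 1513, 1745, 1323 and 1101 bases in the CD CD45hi libraries and 890.2, 977 and 989.6 bases in the WD CD45hi libraries. The 3 WD libraries were thus below all 4 CD libraries, as they were below the 4 WD CD45lo libraries (1292 to 1522 bases). A length shorter in WD than in CD CD45hi libraries without overlap was found for 2.37% of the 9228 genes with a varying length. The share for WD CD45hi against WD CD45lo libraries was not counted. The means were 1420 ± 274 bases (SD, n = 4) on the CD and 952 ± 54.1 bases (SD, n = 3) on the WD. Its mean TPM was 156 ± 33.1 (SD, n = 3) on the WD and 116 ± 28.3 (SD, n = 4) on the CD, a log2 ratio of 0.43 against -0.13 for the counts, and the libraries of the diets overlapped on both units. This length was picked out because of its values, so no test is given. GENCODE M21 lists 4 transcripts of *Slc2a5*, the coding transcript of 3158 bases, a retained intron of 672 bases and noncoding transcripts of 799 and 594 bases, so a shorter length means a larger share assigned to the short transcripts. Which transcripts the reads came from was not tested, and the annotation used for counting differs from M21 for some genes, since the files give a constant length of 1769 bases for *Upk1b*, whose M21 transcript has 1894.

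**Figure D2:**
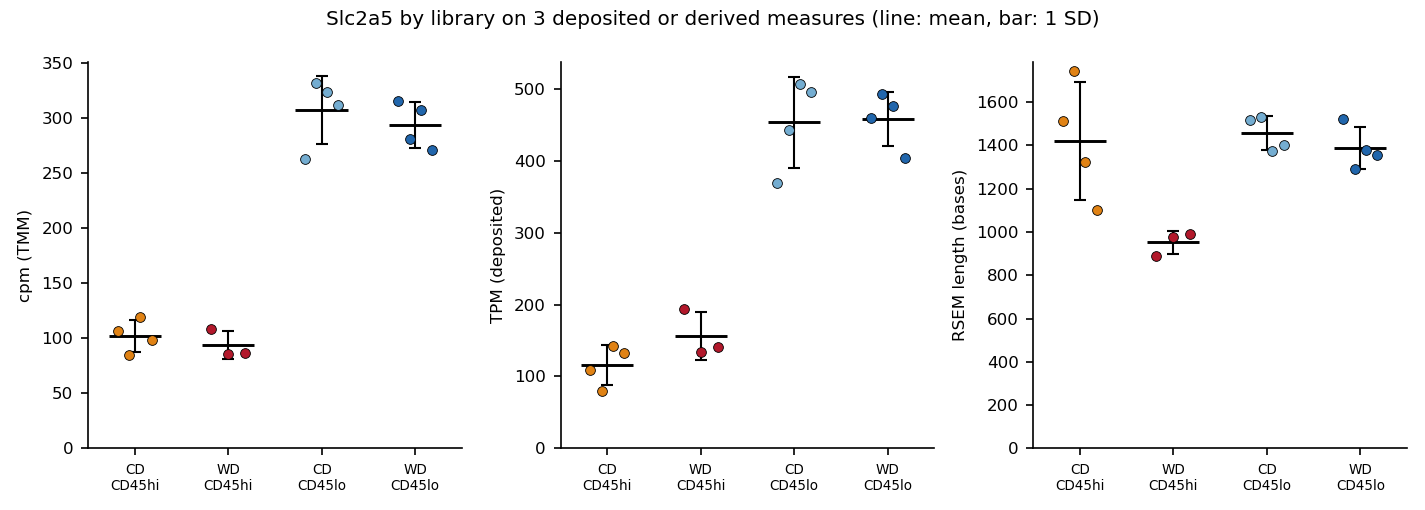
*Slc2a5* in each library as cpm after TMM normalization (left), deposited TPM (middle) and the transcript length estimated by RSEM in bases (right), all on linear axes from 0; lines are means and bars 1 SD. The 3 WD CD45hi libraries lie at 890.2 to 989.6 bases, below every other library, while their cpm overlap those of CD CD45hi.

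Among the other genes the estimated length varied for *Sparc*. *Upk1b* and *Pald1* each had the same length in all 15 libraries, and the group means of *Tmem119*, *Olfml3* and *Fcrls* differed by diet by less than 1%. The length of *Sparc* was 1490.3 to 1840 bases in CD CD45hi, 1692 to 1970.0 in WD CD45hi, 1701 to 1907 in CD CD45lo and 1642 to 1902 in WD CD45lo libraries, with overlap in every comparison and means of 1630.0 and 1847 bases on the CD and WD in CD45hi cells. On the TPM scale *Sparc* was at 1661 ± 297 on the CD and 1321 ± 369 on the WD in CD45hi cells, also with overlap, a log2 ratio of -0.33 beside -0.06 in the fit of counts.

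*Upk1b*, the bladder tetraspanin, was measured at 55.6, 48.5, 82.9 and 37.5 cpm in CD CD45hi and at 16.9, 21.3 and 29.9 cpm in WD CD45hi libraries. In CD45lo cells it was 117, 98.4, 158 and 113 cpm on the CD and 135, 131, 152 and 129 cpm on the WD. All 3 WD CD45hi libraries were below all 4 CD CD45hi libraries, and *Upk1b* was the only 1 of the 7 genes without overlap in this comparison, which 3.19% of all genes showed in this direction. The log2 fold change of WD against CD in CD45hi cells was -1.30 (SE 0.281), with no test because low WD CD45hi values chose the gene, and it stayed between -1.55 and -1.05 when each library was left out. In CD45lo cells, whose values the choice used as well, the diets overlapped and the difference was 0.17 (SE 0.249), also without a test.

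Uroplakins form plaques in the bladder as pairs, with *Upk1b* known to pair with *Upk3a*. *Upk2*, *Upk3a*, *Upk3b* and *Upk3bl* had 0 counts in all 15 libraries, and *Upk1a* did not exceed 0.227 cpm in any. *Upk1b* was thus measured in every library without its known partner.

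*Pald1*, the paladin gene, was measured at 44.8, 85.3, 54.5 and 71.3 cpm in CD CD45hi and at 33.4, 49.0 and 27.8 cpm in WD CD45hi libraries. In CD45lo cells it was 162, 159, 151 and 154 cpm on the CD and 156, 137, 169 and 142 cpm on the WD. In CD45hi cells the diets overlapped, by 1 WD library (49.0 cpm) above the lowest CD library (44.8 cpm). The log2 fold change of WD against CD there was -0.80 (SE 0.239), given without a test, and ran from -1.06 to -0.63 with each library left out. In CD45lo cells it was -0.05 (SE 0.215), likewise without a test. Markers of endothelial and mural cells, the cells paladin is best known from, were at a summed 67.3 to 158 cpm in CD45hi and 47.6 to 84.9 cpm in CD45lo libraries over 9 genes, ranges that overlap. The endothelial *Cldn5* did not exceed 2.48 cpm in any library, and *Flt1*, the 1 of the 9 that was called, was higher in CD45hi cells on each diet (edgeR glmTreat FDR = 0.0197 on the CD and 0.0293 on the WD), while *Pecam1* had values of -0.50 and -0.47 that did not pass. The part of endothelial cells in the *Pald1* level was not tested.

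Between the cell types, the fitted log2 fold changes (CD45hi minus CD45lo) on the CD were -1.59 for *Slc2a5* (SE 0.153), -1.47 for *Fcrls* (SE 0.174), -1.29 for *Pald1* (SE 0.219), -1.25 for *Olfml3* (SE 0.143), -1.19 for *Tmem119* (SE 0.171), -1.12 for *Upk1b* (SE 0.252) and -1.06 for *Sparc* (SE 0.119). On the WD they were -2.59 for *Upk1b* (SE 0.297), -2.04 for *Pald1* (SE 0.25), -1.65 for *Slc2a5* (SE 0.169), -1.54 for *Tmem119* (SE 0.19), -1.19 for *Olfml3* (SE 0.157), -1.15 for *Fcrls* (SE 0.19) and -1.03 for *Sparc* (SE 0.131). The order thus differed by diet, with *Upk1b* near the end on the CD and first on the WD. Among genes with at least 100 cpm in CD45lo cells, ordered from the lowest fold change, *Upk1b* was in place 1 and *Pald1* in place 2 of 1737 on the WD, followed by *P2ry12* and *Slc2a5*. On the CD *Slc2a5* was in place 5, *Fcrls* 11, *Pald1* 16 and *Upk1b* 31 of 1768. These places are the values that the choice used: just outside it on the WD stood *P2ry12* at -1.66, *Prkca* at -1.64 and *E2f3* at -1.59.

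**Figure D3:**
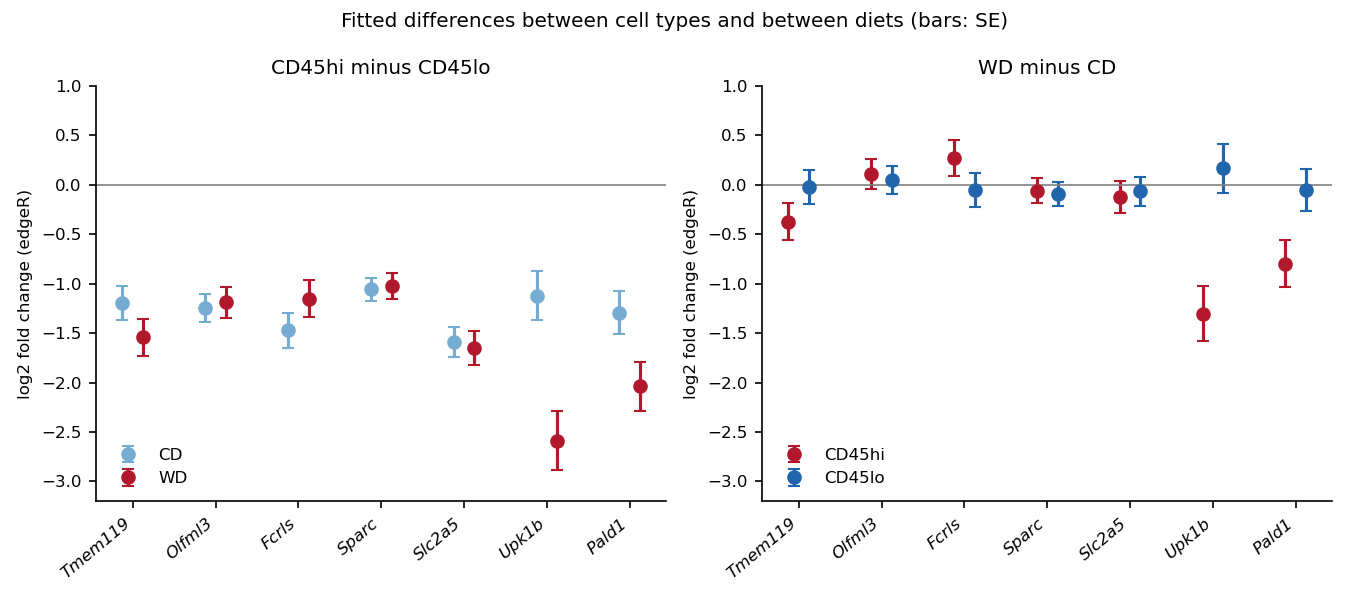
Log2 fold changes from the edgeR fit (y axis) of the 7 genes, CD45hi minus CD45lo on each diet (left) and WD minus CD in each cell type (right); points are estimates and bars their SE. All values on the left lie below -1, and on the right *Upk1b* (-1.30) and *Pald1* (-0.80) in CD45hi cells are the farthest from 0.

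The interaction asks whether the diet difference itself differed between the cell types. It was -0.35 for *Tmem119* (SE 0.248, edgeR glmQLFTest FDR = 0.689), 0.32 for *Fcrls* (SE 0.25, FDR = 0.723), 0.06 for *Olfml3* (SE 0.207, FDR = 0.968), 0.03 for *Sparc* (SE 0.174, FDR = 0.984) and -0.06 for *Slc2a5* (SE 0.22, FDR = 0.968). None of these 5 passed the threshold, and 0.00668% of all genes, 1 gene, did. For *Upk1b* and *Pald1* the interaction was -1.47 (SE 0.373) and -0.75 (SE 0.32), without a test. The 2 diet comparisons gave 0 calls among the 5 established microglial genes in CD45hi and 0 among the same 5 in CD45lo cells, beside 0.254% of all genes in CD45hi cells and 0% in CD45lo cells (edgeR glmQLFTest), where 123 genes had an unadjusted p under 0.05 and DESeq2 called 4. At an unadjusted p under 0.05, 0 of the genes tested here differed by diet in either cell type. Over all 14967 genes, 2628 passed this cutoff in CD45hi cells and 123 in CD45lo cells (edgeR glmQLFTest). Nothing is read from 0 of 5 genes beside these counts. No gene of the 7 had diets without overlap in CD45lo cells, as 2.42% of all genes did in either direction.

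**Figure D4:**
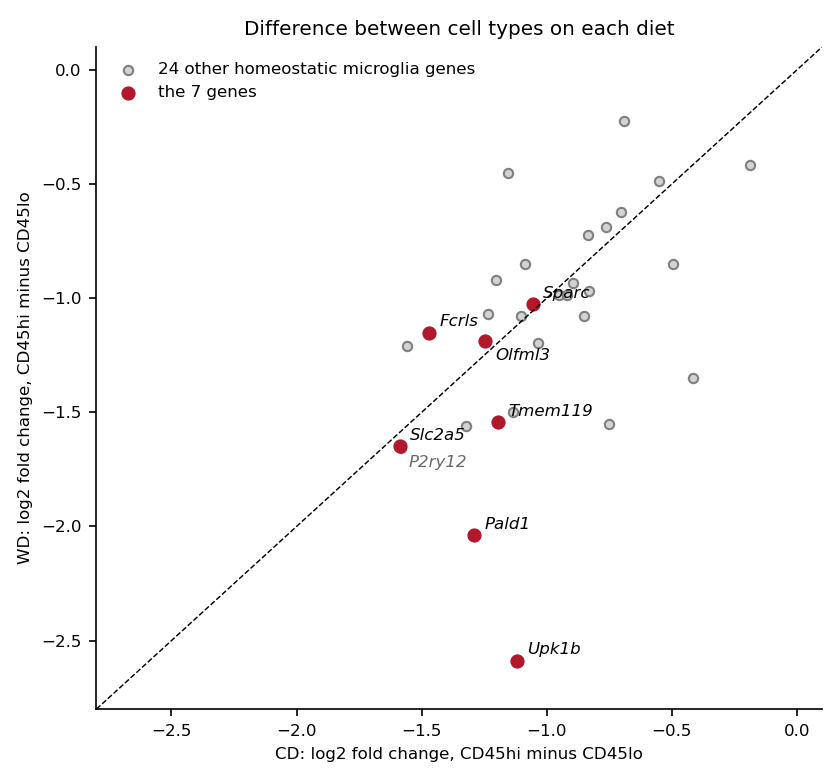
Log2 fold change of CD45hi minus CD45lo cells from the edgeR fit in CD-fed (x axis) and WD-fed mice (y axis) for the 7 genes (red) and 24 other homeostatic microglia genes (grey); the dashed line marks equal values. Of the 7, *Upk1b* and *Pald1* lie farthest below the line, at -2.59 and -2.04 on the WD, and the grey *Ltc4s* and *Crybb1* also lie farther below it than *Pald1*.

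Other homeostatic microglia genes, from a list of 24 that holds none of the 7, had lower fitted values in CD45hi cells too, though not all were called. Their median log2 fold change was -0.91 on the CD and -0.98 on the WD. On the CD 10 of the 24 were called lower beyond 1.5-fold and 20 had no overlap of the libraries, and on the WD 8 were called lower and 23 had no overlap (edgeR glmTreat). *P2ry12*, a microglial ADP receptor, fell by 1.58 on the CD (FDR = 5.36e-06) and by 1.66 on the WD (FDR = 8.805e-06) on the log2 scale. *Csf1r*, the receptor that microglia need for survival, had values of -0.55 and -0.49 that did not pass. By diet, 0 of the 24 were called in CD45hi or in CD45lo cells, and their log2 fold changes ran from -0.83 to 0.54 in CD45hi and from -0.32 to 0.23 in CD45lo cells.

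Some markers of other cell types also differed between the gates. The 10 neutrophil markers summed to 1423 to 4272 cpm in CD45hi and 654 to 1386 cpm in CD45lo libraries, and the 10 monocyte markers to 442 to 1003 and 43.9 to 148 cpm. Of the neutrophil markers 5 were called higher in CD45hi cells on each diet, and of the monocyte markers 6 on the CD and 5 on the WD. *Csf3r* was the highest neutrophil marker in CD45lo cells, at means of 551 cpm on the CD and 684 cpm on the WD. In CD45hi cells it was at 729.5 and 649 cpm, and it was not called between the cell types. The 8 markers of border-associated macrophages summed to 849 to 2914 cpm in CD45hi and 70.4 to 258 cpm in CD45lo libraries, and 8 of 8 were called higher in CD45hi cells on each diet. The 8 lymphocyte markers summed to 11.1 to 156 cpm in CD45hi and at most 0.571 cpm in CD45lo libraries, and *Cd3e* did not exceed 0.258 cpm in any library. The 6 astrocyte markers summed to 84.2 to 135 cpm in CD45hi and 189 to 269 cpm in CD45lo libraries on the CD. These sums did not overlap and were lower in CD45hi cells, the direction of the 7 genes. Of the 6 markers taken singly, 2 were lower without overlap and 2 were called lower. *Gfap* had a higher mean in CD45hi cells. On the WD the astrocyte sums overlapped, at 116 to 284 and 176 to 234 cpm, with 0 called. Oligodendrocyte markers summed to 126 to 274 cpm in CD45hi and 89.6 to 129 cpm in CD45lo libraries. The part of these cells in the levels of the 7 genes was not tested. Within CD45hi cells the neutrophil sum was 1742 to 4272 cpm on the CD and 1423 to 2562 cpm on the WD, while the summed microglial markers were 3513 to 4063 and 3158 to 3569 cpm, overlapping between the diets. The endothelial and mural sum did not overlap, at 67.3 to 93.7 cpm on the CD and 103 to 158 cpm on the WD, and 1 WD CD45hi library had a border-associated macrophage sum of 849 cpm beside 2083 and 2914 cpm in the others. No gene of these marker lists was called by diet, and their part in the lower *Upk1b* and *Pald1* of WD CD45hi libraries was not tested.

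Compared per length, in deposited TPM, the order of the genes in CD45lo cells was the same on both diets. *Sparc* was highest, at 4188 ± 192 TPM on the CD and 4076 ± 168 on the WD (SD, n = 4 each). *Fcrls* (1235 ± 82.2 and 1201 ± 267) and *Tmem119* (1065 ± 104 and 1055 ± 94.3) came next and overlapped each other. *Olfml3* (558 ± 60.8 and 582 ± 69.4) and *Slc2a5* (453 ± 62.8 and 458 ± 38.1) overlapped as well. *Upk1b* followed at 144 ± 31.4 and 162 ± 14.8 TPM, and *Pald1* was lowest at 72.1 ± 2.64 and 69.8 ± 7.63 TPM, each apart from its neighbours. In CD45hi cells *Sparc* was again highest (1661 ± 297 TPM on the CD and 1321 ± 369 on the WD) and *Pald1* lowest (21.5 ± 6.67 and 11.6 ± 3.12), with *Upk1b* (48.4 ± 17.5 and 18.5 ± 5.75) overlapping it on each diet.

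Libraries of the same group differed from each other in different genes. Taking each gene's log2 cpm minus the mean of its group, replicate 1 of CD CD45hi was high for *Tmem119* (0.55) and low for *Fcrls* (-0.57), *Pald1* (-0.47) and *Olfml3* (-0.34). Replicate 3 of CD CD45hi was high for *Upk1b* (0.62), and replicate 4 low (-0.52). In CD45lo cells replicate 4 of the WD had all 7 genes below the group mean, led by *Fcrls* (-0.42). *Tmem119* was practically at the mean there (-0.0006). Replicate 3 of the WD had all 7 above the group mean. The summed microglial markers were 8542, 8189, 7981 and 7026 cpm in WD CD45lo replicates 1 to 4, lowest in replicate 4 and not highest in replicate 3.

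**Figure D5:**
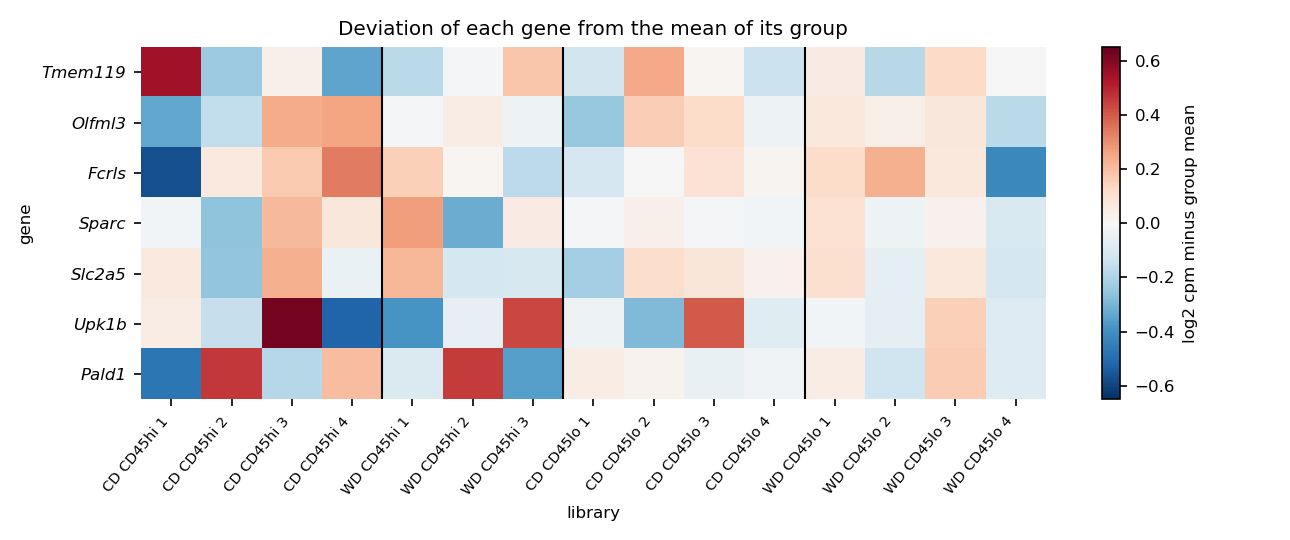
Deviation of each gene (rows) from the mean of its group in each library (columns), in log2 cpm, from below the mean (blue) to above it (red). Replicate 1 of CD CD45hi is high for *Tmem119* (0.55) and low for *Fcrls* (-0.57), and in CD45lo cells those of *Sparc* run from -0.10 to 0.10.

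The genes whose pattern was most like the 7 over all 15 libraries were *P2ry13*, *Cx3cr1*, *P2ry12*, *Qk* and *Siglech*, by Pearson's r of 0.987, 0.985, 0.984, 0.979 and 0.975 between their log2 cpm and the mean of the 7 standardized genes, out of 1841 other genes with a mean of at least 100 cpm. These r rest on the difference between the gates, which all of them share. On deviations from the group means the highest r were those of *P2ry13* (0.831), *Ewsr1* (0.797), *Hsp90ab1* (0.776), *Rasal3* (0.752) and *Il1a* (0.750). By Spearman's rho 1 of the first 5 and 3 of the second 5 stayed among the highest 5. On deviations the 7 genes did not all vary together, so their mean is not a pattern that each of them follows. In CD45hi libraries Pearson's r between pairs of them ran from -0.932 (*Tmem119* and *Fcrls*) to 0.837 (*Olfml3* and *Fcrls*). In CD45lo libraries it ran from -0.104 to 0.924. The r of the named genes are over 15 libraries, and all are descriptions without a test.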

How the data were processed

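Poly(A)-selected RNA-seq libraries of sorted brain myeloid cells were analysed from 1 results table per library, and 0 columns lacked a sample. The authors trimmed the reads and estimated gene levels with RSEM 1.2.12 on mm10, after bcl2fastq 2.18.0.12 per the labels' processing notes. The annotation release and any use of strand are not given in the sources used here. The deposited expected counts per gene were rounded to whole numbers, and the deposited TPM and RSEM lengths were used as the authors gave them; the deposited FPKM were not used. Expected counts summed to 11951412 to 17912272 per library.

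Counts were normalized by TMM in edgeR 4.0.16 (R 4.3.3), keeping the 14967 genes with at least 1 cpm in 2 or more libraries, and 1 model with 4 groups was fitted to all 15 libraries. Diets and the interaction were tested with glmQLFTest, and cell types with glmTreat at 1.5-fold. No test is given for *Upk1b* and *Pald1*, whose values in both cell types chose them, although a diet test in CD45lo cells had been planned. FDR values are Benjamini-Hochberg over all genes tested, with a threshold of 0.05. For log2 cpm a prior count of 2 was used. DESeq2 1.42.0, limma-voom (limma 3.58.1), other filters, a replicate block and leaving out each library served as alternatives, and the fit was tested on simulated data.

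The 7 genes and all gene lists were chosen with earlier results of these data known. From each list up to 4 genes were named, those with the highest level and the largest and smallest fold changes, with others named after their values were seen. Coordinates come from GENCODE M21 and promoters from RefSeq.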

Additional observations from a re-analysis of the deposited data

Results flagged for a closer look

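1 value lay far from the others of its group. *Olfml3* was 883 cpm in replicate 4 of WD CD45lo, and 1024 to 1050.4 cpm in the other 3 libraries of that group. The gap to the nearest library was 0.839 of the range of the group, above Dixon's 95% critical value for 4 samples. Of the 24 groups of 4 values examined, only this 1 passed, and chance alone passes about 1 in 20. All 7 genes were below their group mean in that library, *Tmem119* only barely (-0.0006 in log2 cpm).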

How the results depend on the processing

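Of the genes tested between diets or for the interaction, 0 were called under any of the alternatives run, and the FDR of *Tmem119* in CD45hi cells ran from 0.177 to 0.908. The count over all genes in CD45hi cells was less stable. It was 38 in the fit reported, 1030 with DESeq2, 252 with the edgeR 4 quasi-likelihood form and 0 with only the CD45hi libraries in the fit (843 at an unadjusted p under 0.05), and 1 to 286 with each library left out, lowest without replicate 2 of WD CD45lo and highest without replicate 2 of WD CD45hi. DESeq2 called 4 genes by diet in CD45lo cells and edgeR 0 with any library left out. For the interaction, 1 gene became 188 with DESeq2, 0 with limma-voom and with the edgeR 4 form, and 0 to 6 with each library left out. In limma-voom 17 genes called in CD45hi cells were higher and 10 lower on the WD, against 9 and 29 in edgeR. The cause was not tested.

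With TPM ratios, an alternative chosen after seeing the data for the diet comparisons, *Slc2a5* turned to 0.43 in CD45hi and 0.015 in CD45lo cells, through the length that TPM divides by. The median difference of the 7 genes between the cell types became -1.71 on the CD and -1.73 on the WD, where the median of all genes was -0.36 and -0.46 on that scale. The *Sparc* interaction turned to -0.013 in limma-voom and -0.012 with the file-number replicate block. With each library left out the median of the 7 genes ran from -1.33 to -1.15 on the CD and from -1.60 to -1.46 on the WD, and the *Slc2a5* length difference, added after seeing the data, from -574.8 to -360.1 bases. Small differences changed sign when a library was left out: *Sparc* in CD45hi cells (-0.203 to 0.0851), *Tmem119* (-0.068 to 0.0622), *Olfml3* (-0.0263 to 0.106) and *Fcrls* (-0.132 to 0.068) in CD45lo cells, and the interactions of *Olfml3* (-0.0451 to 0.145), *Slc2a5* (-0.179 to 0.0209) and *Sparc* (-0.112 to 0.176). Spearman's rho kept 1 of 5 and 3 of 5 of the genes most like the 7.

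Libraries share replicate numbers across the gates. Deviations of same-numbered libraries correlated at 0.0098 to 0.0695 on the CD and -0.0217 to -0.0037 on the WD by title. Differently numbered CD libraries had r of -0.0516 to 0.0455, and WD libraries with the same file number -5e-04 to 0.013. Such small r cannot tell whether same-numbered libraries came from the same mouse. The replicate block by title also joined CD and WD libraries of the same number, which came from different mice. With that block 2 genes were called by diet in CD45hi cells and 0 for the interaction, counts that do not show the effect of pairing. In limma-voom with file numbers as the block 0 were called for the interaction.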
